A study of Mus musculus with 11 samples.

Results

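The interval from Ralb to Tmem177 is a gene-dense stretch of mouse chromosome 1 and the second domain to the left of the one that holds En1, a homeobox gene of limb patterning. It was described here from capture Hi-C maps, in which crosslinked chromatin is cut, religated and enriched for one region, and a sequenced read pair counts as a contact of the loci at its ends. The members are all pairs of 10 kb bins with both bins starting between 121360001 and 121900001 (mm9, chr1:121360001-121910000). That gives 55 bins over 550 kb and 1540 bin pairs out of 88410 in each map, of which 1378 are at least 30 kb apart and are used below. The ends of the interval were chosen by the insulation boundaries of the wild-type forelimb map, so contacts across those ends are a description and were not tested. The deposited values came as 4 merged maps, 1 for each group, and each error below is a counting error of 1 merged map, not a spread between embryos.

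All tissues came from mouse embryos at embryonic day 9.5. Wild-type forelimb, forebrain and midhindbrain boundary were each merged from 3 libraries, and mutant forelimb carrying an inserted stop cassette (3xpA in the library titles) from 2 libraries. The strain is given as c57bl6.J X 129S6.sv for all 11 libraries, while wild-type forelimb alone has the tag CD1 and lower library numbers in its titles. Strain tag and library series therefore cannot be told apart from genotype or tissue in any comparison with wild-type forelimb. The position of the cassette, its zygosity and the number of embryos in a library are not given in the sources used here, and each tissue is a whole dissected part with its mixture of cell types. The maps held 8823849 contacts (wild-type forelimb), 9489482 (forebrain), 9523316 (midhindbrain boundary) and 7662227 (stop-cassette forelimb). Of these, 407407, 383123, 384824 and 313769 fell on the 1378 internal bin pairs, with a median of 221.5, 206, 206 and 169 contacts per pair. No internal pair was empty in any map, and the lowest count was 15.

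Chromatin of vertebrate nuclei folds into domains whose parts touch each other more than their surroundings. Cohesin is thought to extrude loops until it meets bound CTCF, which leaves raised contact at domain ends and spots of contact between loop anchors. Insulation, the scarcity of contacts across a point, marks the edges of such domains. Ralb encodes a small GTPase of the Ras family that acts in vesicle traffic, Epb41l5 a FERM-domain protein needed for cell movement at gastrulation, Ptpn4 a tyrosine phosphatase with FERM and PDZ domains, and Tmem177 a mitochondrial membrane protein of cytochrome c oxidase assembly.

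In the RefSeq table of a later assembly (GRCm38.p6), 13 annotated genes run from Ralb to Tmem177: 5 protein-coding genes in the order Ralb, Tmem185b, Epb41l5, Ptpn4 and Tmem177, 2 long non-coding RNA genes and 6 pseudogenes. Ptpn4 spans 185 kb and Epb41l5 104 kb there, so both together are longer than the other 11. The maps are in mm9, for which no annotation was used here, so no gene start was assigned to a bin and no contact below is tied to a promoter. Promoters of 4 of the 5 coding genes were in the RefSeq table of sequences. The pair printed here belongs to the genes that name the ends of the domain, 300 bases each on the gene's own strand, with every CG in capitals.

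Ralb (GRCm38.p6, chr1:119504733-119505032, minus strand): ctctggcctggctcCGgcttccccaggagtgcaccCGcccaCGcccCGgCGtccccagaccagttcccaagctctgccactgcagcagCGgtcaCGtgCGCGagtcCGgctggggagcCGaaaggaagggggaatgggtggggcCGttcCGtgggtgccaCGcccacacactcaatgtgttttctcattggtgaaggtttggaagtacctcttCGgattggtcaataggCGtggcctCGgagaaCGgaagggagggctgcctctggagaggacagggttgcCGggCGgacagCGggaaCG

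Tmem177 (GRCm38.p6, chr1:119913134-119913433, minus strand): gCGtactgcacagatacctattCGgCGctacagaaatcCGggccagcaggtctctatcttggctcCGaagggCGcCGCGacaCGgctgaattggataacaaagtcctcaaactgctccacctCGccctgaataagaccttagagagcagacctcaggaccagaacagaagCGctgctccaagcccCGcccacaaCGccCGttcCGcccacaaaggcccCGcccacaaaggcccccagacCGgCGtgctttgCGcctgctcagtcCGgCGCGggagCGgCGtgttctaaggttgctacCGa

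Both are rich in CG, as promoters of broadly expressed genes often are: Ralb holds 22 CG and Tmem177 25, against a median of 7 over the 32851 promoters of the table. Such counts are not rare, since 23.1% of all promoters reach that of Ralb and 18.4% that of Tmem177. The Ptpn4 promoter holds 44, a count that 2.25% of all promoters reach, and Tmem185b holds 29. DpnII, the enzyme that cut the chromatin, recognises GATC, which reads the same on both strands and so is found once for both. None of the 4 promoters holds that motif within its 300 bases, while 48% of all promoters do. This says only that these letters are not in those windows.

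Contact inside the domain was above the level of the whole map in all 4 maps, and higher in forelimb than in brain. Observed over expected (O/E) is the balanced signal of a bin pair over the mean of all pairs at the same distance in the same map. Its mean over the 1378 pairs was 1.14 ± 0.00228 (counting SE) in wild-type forelimb, 1.11 ± 0.00226 in forebrain, 1.10 ± 0.00227 at the midhindbrain boundary and 1.18 ± 0.00268 in stop-cassette forelimb. Pairs above 1 made up 73.9%, 68.9%, 68.9% and 77.0% of the 1378, in that order of maps. Pairs at 1.5 or above numbered 81, 60, 48 and 132. Because the interval was picked as a domain in wild-type forelimb, a level above 1 there follows in part from the choice. The ends also match the boundaries of the forelimb maps better than those of the brain maps. The higher level in forelimb than in brain is therefore not independent of the choice either. The neighbour on the left was more compact in the 3 wild-type maps (1.25 ± 0.00287, 1.33 ± 0.00303 and 1.31 ± 0.00304), but not in the stop-cassette map, where it stood at 1.17 ± 0.00326. The En1 domain had 1.37 ± 0.00232, 1.40 ± 0.00235, 1.31 ± 0.00229 and 1.30 ± 0.00258. The right neighbour was close to the domain itself, at 1.14 ± 0.00218, 1.13 ± 0.00220, 1.12 ± 0.00222 and 1.15 ± 0.00246. Wild-type forelimb was above both brain maps there too.

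The stop-cassette map exceeded wild-type forelimb by a log2 ratio of 0.045 ± 0.0044 in the domain mean (95% counting interval 0.037 to 0.054). Wild-type forelimb exceeded forebrain by 0.040 ± 0.0041 (0.032 to 0.048) and the midhindbrain boundary by 0.047 ± 0.0041 (0.039 to 0.055). In raw counts over the raw distance mean both ratios were 0.093. With 2 bins trimmed from each end they were 0.030 and 0.036. Between the brain tissues the ratio of midhindbrain boundary over forebrain was -0.0069 ± 0.0042, with an interval of -0.015 to 0.0012 that includes 0. The first 3 comparisons share the wild-type forelimb map. Inside the left neighbour and inside the En1 domain the stop-cassette map was lower than wild-type forelimb, by log2 ratios of -0.095 ± 0.0052 and -0.075 ± 0.0038, and inside the right neighbour the ratio was 0.0063 ± 0.0041. All of these differences are under 0.1 on the log2 scale, so they are small shifts of a mean that counting alone fixes tightly. Whether they exceed the spread between embryos was not tested, since replicates were merged.

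**Figure D1:**
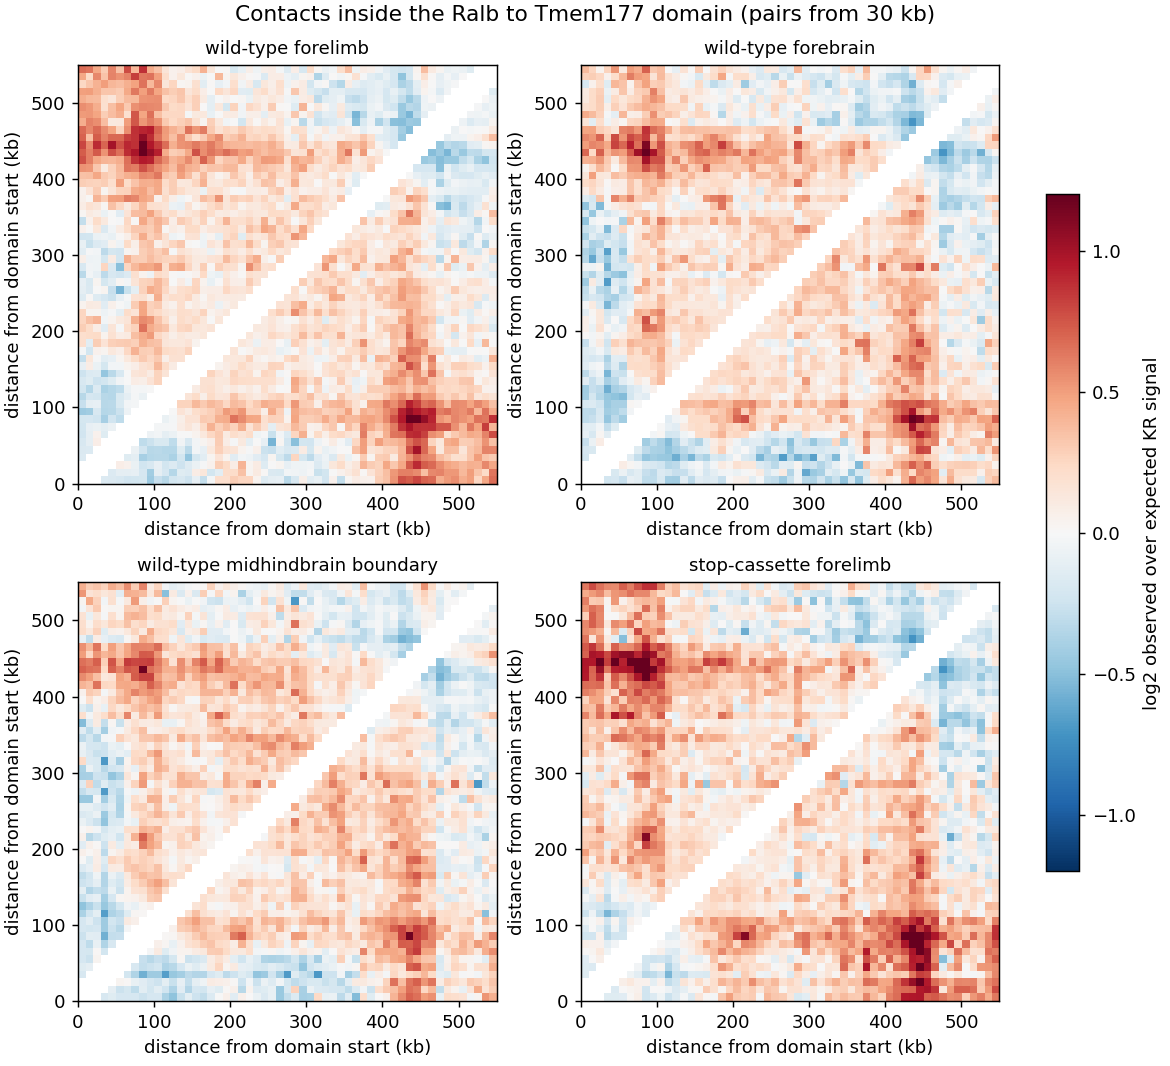
O/E of every internal bin pair from 30 kb, one panel per map, on a log2 colour scale; both axes give the distance from the domain start in kb. In all 4 maps the highest O/E joins the bins near 80 kb and 430 kb, but in the stop-cassette panel other strong pairs share its shade. The first 100 kb are darker at long range in the 2 forelimb maps than in the 2 brain maps.

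The excess over expectation was largest at long range. By the choice of ends, internal pairs cross no boundary of the wild-type forelimb map, while pairs elsewhere cross more of them the longer they are. A rise of O/E with distance therefore follows in part from that choice. The neighbouring domains were not divided by distance, so the rise is not shown to be particular to this domain. Over the 388 pairs 30 to 100 kb apart the mean O/E was 1.05 ± 0.00286 in wild-type forelimb, 1.07 ± 0.00293 in forebrain, 1.07 ± 0.00292 at the midhindbrain boundary and 1.06 ± 0.00327 in stop-cassette forelimb. Over the 300 pairs 310 to 540 kb apart it was 1.33 ± 0.00605, 1.21 ± 0.00581, 1.18 ± 0.00580 and 1.39 ± 0.00714. As a mean over the domain, short-range contact was thus close to the map average in all maps, though stretches of the domain differed, as given below. The maps separated with distance.

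At 30 to 100 kb wild-type forelimb was slightly below the brain maps, with log2 ratios of -0.015 ± 0.0056 over forebrain and -0.021 ± 0.0055 over the midhindbrain boundary. At 310 to 540 kb it was above both, by 0.14 ± 0.0095 and 0.18 ± 0.0097. The stop-cassette map did not separate from wild-type forelimb at 30 to 100 kb (0.0065 ± 0.0059, interval -0.0051 to 0.018), but it was above it in the 3 longer bands, by 0.045 ± 0.0082 at 110 to 200 kb, 0.074 ± 0.011 at 210 to 300 kb and 0.060 ± 0.0099 at 310 to 540 kb. The brain maps differed beyond counting error only in the longest band, where midhindbrain boundary over forebrain was -0.044 ± 0.0099.

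The decay of contact with distance gave the same picture in another form. Between 30 and 500 kb the slope of log10 signal on log10 distance inside the domain was -0.70 ± 0.0033 in wild-type forelimb, -0.75 ± 0.0035 in forebrain, -0.79 ± 0.0036 at the midhindbrain boundary and -0.70 ± 0.0038 in stop-cassette forelimb. Over the whole maps at those distances it was -0.83, -0.81, -0.83 and -0.84. Signal inside the domain therefore fell off less steeply than the map average in every tissue. The limit from the choice of ends applies here too, and no slope was taken in the neighbouring domains.

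**Figure D2:**
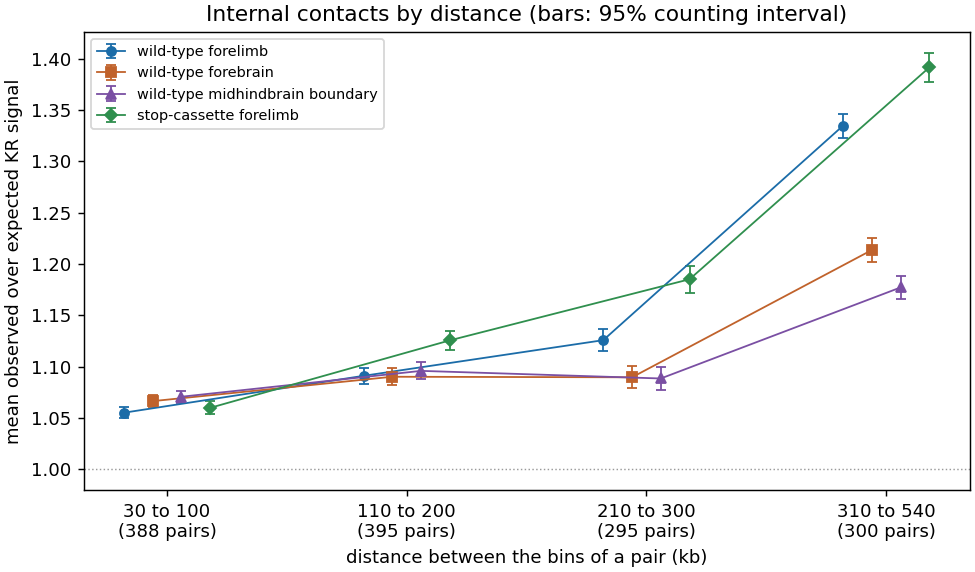
Mean O/E of internal bin pairs in 4 bands of distance (x axis, kb) for each map; bars are 95% counting intervals. The 4 maps lie between 1.05 and 1.07 in the shortest band and between 1.18 and 1.39 in the longest, with the forelimb maps on top.

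The left end of the domain and its right part met more than their distance predicts, as the division into 5 equal segments of 110 kb shows. Segment 1 (121360001 to 121470000) met segment 5 (121800001 to 121910000) with a mean O/E of 1.47 ± 0.011 in wild-type forelimb, 1.30 ± 0.0099 in forebrain, 1.24 ± 0.0098 at the midhindbrain boundary and 1.505 ± 0.012 in stop-cassette forelimb. With segment 4 (121690001 to 121800000) it reached 1.32 ± 0.0090, 1.22 ± 0.0088, 1.21 ± 0.0088 and 1.498 ± 0.011. In both forelimb maps these were the 2 highest of the 15 combinations of segments. In forebrain they ranked highest too, but segment 1 with segment 4 was within counting error of the next ones. There, segment 2 with segment 4 had 1.211 ± 0.0076, segment 3 with segment 4 had 1.209 ± 0.0080 and contact within segment 3 was 1.206 ± 0.013. At the midhindbrain boundary segment 3 with segment 4 (1.24 ± 0.0080) and segment 2 with segment 4 (1.22 ± 0.0077) came between the 2 combinations with segment 1. Contact within segment 3 (1.215 ± 0.013) did so too in that map. Contact within segment 1 itself was below expectation in all maps, at 0.881 ± 0.0061, 0.867 ± 0.0062, 0.873 ± 0.0061 and 0.950 ± 0.0073. Segment 4 with segment 5 was also below 1, at 0.930 ± 0.0050, 0.930 ± 0.0051, 0.930 ± 0.0052 and 0.926 ± 0.0058, and these values did not differ between maps beyond counting error.

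In the 3 comparisons with wild-type forelimb the largest ratio belonged to a combination with segment 1, while for midhindbrain boundary over forebrain it lay within segment 4 (-0.083 ± 0.014). The stop-cassette map was above wild-type forelimb by log2 ratios of 0.19 ± 0.018 for segment 1 with segment 3 (1.19 against 1.05), 0.19 ± 0.015 with segment 4, 0.10 ± 0.011 with segment 2 and 0.11 ± 0.015 within segment 1, while its ratio with segment 5 was 0.029 ± 0.016. Among the 10 combinations without segment 1 the same ratio lay between -0.082 ± 0.015, within segment 5, and 0.043 ± 0.014, within segment 2. Wild-type forelimb stood above the midhindbrain boundary most for segment 1 with segment 5, by 0.25 ± 0.015, and above forebrain for the same combination, by 0.19 ± 0.015. Within segment 3, in the middle of the domain, the ratio of stop-cassette over wild-type forelimb was -0.0015 ± 0.023.

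Single bins toward both sides of the domain were uneven. The mean O/E of a bin with the rest of the domain, averaged over maps, was highest for 121800001, 121440001 and 121790001. The end bins themselves were lower, at 1.08 for the first, 121360001, and 1.11 for the last, 121900001. Bin 121440001 had 1.36 ± 0.012 in wild-type forelimb, 1.29 ± 0.012 in forebrain, 1.25 ± 0.012 at the midhindbrain boundary and 1.44 ± 0.015 in stop-cassette forelimb. Bin 121800001 had 1.34 ± 0.012, 1.33 ± 0.012, 1.28 ± 0.012 and 1.43 ± 0.015, and bin 121790001 had 1.34 ± 0.014, 1.31 ± 0.014, 1.27 ± 0.014 and 1.39 ± 0.017. All 3 bins were thus highest in stop-cassette forelimb and lowest at the midhindbrain boundary.

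The lowest bins were 121830001, 121390001 and 121880001. Bin 121390001 had 1.05 ± 0.011 in wild-type forelimb, 0.904 ± 0.0100 in forebrain, 0.899 ± 0.010 at the midhindbrain boundary and 1.09 ± 0.013 in stop-cassette forelimb, so it lay below expectation in the brain maps alone. Of all 55 bins it had the largest ratio of wild-type forelimb over forebrain (0.21 ± 0.022) and over the midhindbrain boundary (0.22 ± 0.022). Bin 121830001 had 1.06 ± 0.014, 0.962 ± 0.013, 0.936 ± 0.013 and 0.975 ± 0.015. It was the bin in which the stop-cassette map fell furthest under wild-type forelimb, with a log2 ratio of -0.12 ± 0.030. Bin 121880001 had 1.06 ± 0.014, 0.987 ± 0.013, 0.984 ± 0.013 and 0.987 ± 0.015.

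The stop-cassette map was the higher one in 43 of 55 bins, most in bin 121380001 (1.32 against 1.15, log2 ratio 0.19 ± 0.023). Wild-type forelimb was higher than forebrain in 43 bins and higher than the midhindbrain boundary in 42, and the midhindbrain boundary was higher than forebrain in 22. One thin bin, 121640001, held between 15.8% and 16.7% of the median raw coverage of a bin, so that few counts stand behind it. Its O/E with the rest of the domain was 1.15 ± 0.023, 1.16 ± 0.023, 1.18 ± 0.023 and 1.19 ± 0.026, inside the range of the other bins.

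**Figure D3:**
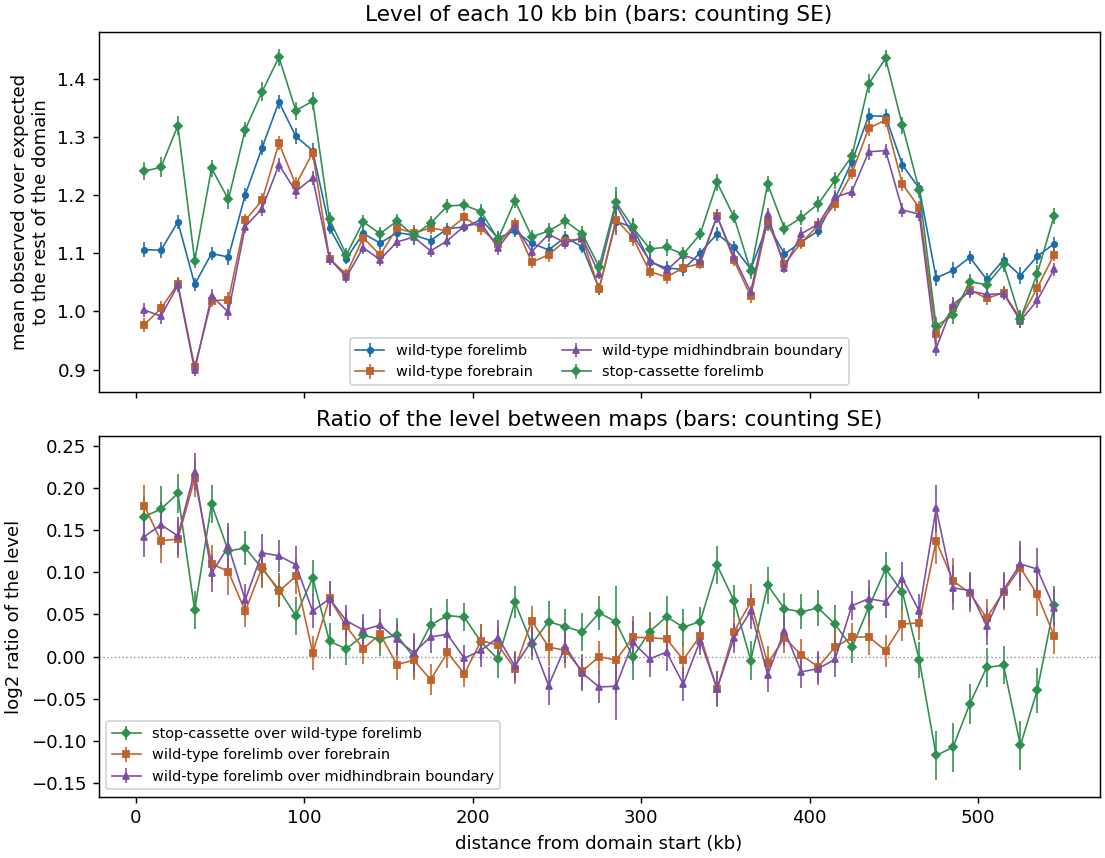
Upper panel: mean O/E of each 10 kb bin with all internal bins at least 30 kb away, by map. Lower panel: log2 ratio of that level for 3 comparisons; x axes give the distance from the domain start in kb and bars are counting SE. Levels peak near 80 kb and 440 kb in all maps, and the ratios are highest in the first 100 kb, up to 0.19 for stop-cassette over wild-type forelimb.

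One contact stood at the top of the domain in all 4 balanced maps. Bins 121440001 and 121790001, 350 kb apart, ranked first of 1378 pairs in each map. They shared 347 contacts in wild-type forelimb, 284 in forebrain, 263 at the midhindbrain boundary and 295 in stop-cassette forelimb, with O/E of 2.81 ± 0.15, 2.33 ± 0.14, 2.25 ± 0.14 and 3.08 ± 0.18. In raw counts over the raw distance mean the pair had 2.98, 2.41, 2.33 and 3.43. Other named pairs were higher on that scale in the brain maps. Bins 121440001 and 121900001 had 2.59 in forebrain and 2.37 at the midhindbrain boundary, and bins 121400001 and 121800001 had 2.47 and 2.38. Bin 121440001 also had more raw contacts with 121780001 (340 kb) in every map, at 424, 420, 356 and 379. The first rank is therefore given for the balanced values only. For bins 121440001 and 121790001 the order of the maps on both scales was stop-cassette forelimb, wild-type forelimb, forebrain and midhindbrain boundary. For this pair alone, stop-cassette over wild-type forelimb had a log2 ratio of 0.13 ± 0.11, which is within counting error.

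Its surroundings were raised too. Bin 121440001 also met 121780001, 121800001 and 121810001 with O/E of 1.94, 2.27 and 2.08 in wild-type forelimb and 2.39, 2.44 and 2.17 in stop-cassette forelimb. The 9 pairs of the 3 by 3 box centred on it had a mean O/E of 2.06 ± 0.041, 1.85 ± 0.040, 1.77 ± 0.039 and 2.28 ± 0.050, against 1.59 ± 0.017, 1.49 ± 0.017, 1.43 ± 0.017 and 1.71 ± 0.021 in the ring of 40 pairs around the box. Box over ring was thus 1.30, 1.25, 1.23 and 1.33. Over the box the differences between maps passed counting error: 0.14 ± 0.043 for stop-cassette over wild-type forelimb, 0.15 ± 0.042 for wild-type forelimb over forebrain and 0.22 ± 0.043 over the midhindbrain boundary. Midhindbrain boundary over forebrain was -0.069 ± 0.044. The box was centred on the highest pair, so a level above the ring follows from the choice, and both are descriptions.

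Among all 4235 bin pairs of a map 300 to 400 kb apart, the pair ranked 32nd in wild-type forelimb, 77th in forebrain, 79th at the midhindbrain boundary and 25th in stop-cassette forelimb. Each map's strongest such pair lay elsewhere, between bins 120660001 and 120970001 or 120980001, with O/E from 5.37 to 6.05. The pair inside the Ralb to Tmem177 domain was accordingly raised for its distance but well under the strongest contacts of the region.

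5 further pairs, chosen by the highest minimum over the 4 maps, had their left bin between 121360001 and 121460001. Bin 121400001 met 121800001 (400 kb) with O/E of 1.99 ± 0.12, 1.75 ± 0.11, 1.69 ± 0.11 and 2.302 ± 0.15. Bin 121440001 met 121900001 (460 kb), the last bin of the domain, with 1.84 ± 0.11, 1.63 ± 0.11, 1.51 ± 0.10 and 1.84 ± 0.13. The first bin, 121360001, met 121790001 (430 kb) with 1.66 ± 0.13, 1.61 ± 0.13, 1.63 ± 0.14 and 1.95 ± 0.17. These longer contacts pass over nearly the whole domain.

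Bin 121460001 met 121820001 (360 kb) with O/E of 1.62 ± 0.10, 1.52 ± 0.10, 1.60 ± 0.11 and 1.75 ± 0.13. Bin 121440001 met 121560001, only 120 kb away, with 1.57 ± 0.071, 1.62 ± 0.075, 1.54 ± 0.073 and 1.75 ± 0.087. This last pair was the shortest of the 6, and its wild-type values lay within counting error of each other. Bin 121440001 took part in 3 of the 6 named pairs and bin 121790001 in 2.

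The strongest 5% of internal pairs numbered 69 in each map. 24 of them (34.8% of each list) were shared by all 4 maps, and 23 of these 24 spanned more than 300 kb. Every shared pair had its left bin between 121360001 and 121460001. Pairs of maps shared from 34 of 69 (forebrain with midhindbrain boundary) to 44 of 69 (wild-type with stop-cassette forelimb). Pairs over 300 kb made up 59 of the 69 in wild-type forelimb, 38 in forebrain, 44 at the midhindbrain boundary and 62 in stop-cassette forelimb, out of 300 such pairs in the domain.

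The weakest pairs in all maps lay at short range beside those anchors. Bins 121780001 and 121830001, 50 kb apart, had O/E of 0.702 ± 0.034, 0.687 ± 0.034, 0.674 ± 0.034 and 0.692 ± 0.038 on counts of 430, 400, 390 and 333. Bins 121730001 and 121840001 (110 kb) had 0.793 ± 0.059, 0.757 ± 0.062, 0.801 ± 0.065 and 0.735 ± 0.070. Both pairs cross the edge at 121810001 described below, and neither differed between maps beyond counting error.

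On the left side, bins 121390001 and 121440001 (50 kb) had 0.759 ± 0.027, 0.724 ± 0.027, 0.669 ± 0.026 and 0.794 ± 0.032, and bins 121400001 and 121470001 (70 kb) had 0.788 ± 0.036, 0.718 ± 0.035, 0.774 ± 0.037 and 0.775 ± 0.041. The depletion of this second set depended on the balancing: in raw counts over the raw distance mean the first pair had 1.46, 1.35, 1.23 and 1.501 and the second 1.17, 1.04, 1.12 and 1.15. The pairs at 121810001 were below 1 on both scales.

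**Figure D4:**
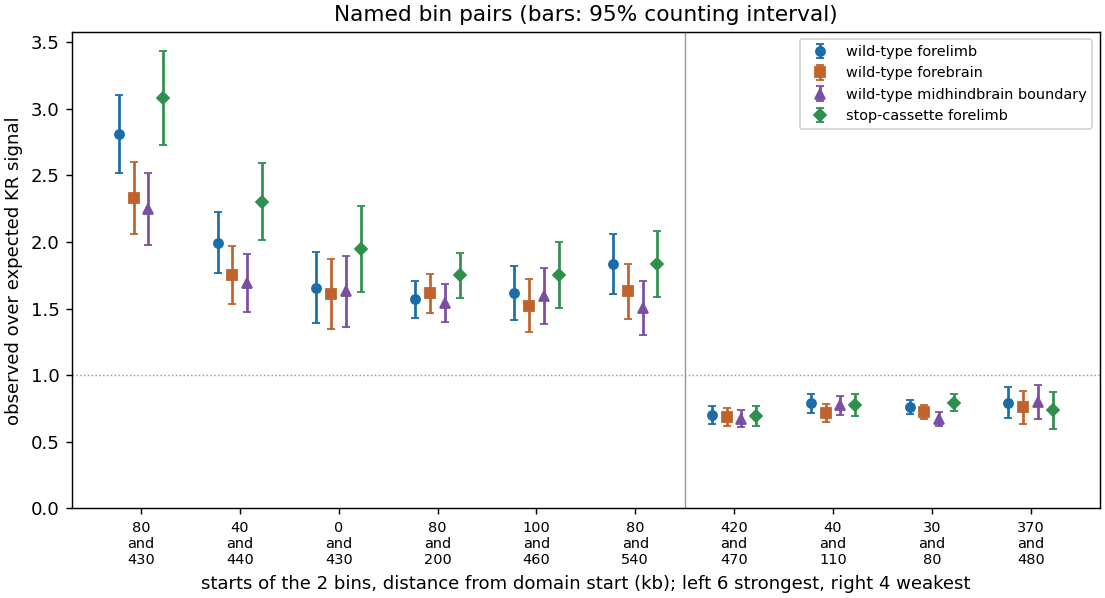
O/E of the 6 strongest and 4 weakest named bin pairs, by map, with 95% counting intervals; bins on the x axis are given by their distance in kb from the domain start. The pair at 80 and 430 kb stands between 2.25 and 3.08, the weakest 4 between 0.669 and 0.801.

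An inner edge was found near the right end in all wild-type maps with a 100 kb square. The insulation score is the log2 of the mean signal in a 100 kb square across a bin edge over its map average, so that low values mark insulation. Over the inner edges the score was lowest on average at 121400001 (-0.28), but that is the first edge allowed by the 30 kb margin and lies on the flank of the left boundary. The lowest true inner minimum was at 121810001, with -0.20 ± 0.0074 in wild-type forelimb, -0.22 ± 0.0076 in forebrain and -0.18 ± 0.0075 at the midhindbrain boundary. It was 0.11, 0.14 and 0.15 deep. The stop-cassette map had -0.22 at the same edge but no minimum there with this square, and its score stayed between -0.24 and -0.16 up to the right end of the domain. With a 60 kb square its lowest inner minimum was at 121810001 as well, and from raw counts that of all 4 maps was at 121660001, beside the thin bin. With a 150 kb square it was at 121810001 in forebrain and at the midhindbrain boundary, while neither forelimb map gave one. With the 100 kb square a second minimum, of higher score, lay at 121580001 in wild-type forelimb (score 0.12, depth 0.12), forebrain (score 0.14, depth 0.14) and stop-cassette forelimb (score 0.11, depth 0.15). At 121650001 the midhindbrain boundary (score 0.24, depth 0.10) and stop-cassette forelimb (score 0.14, depth 0.11) had another. The interior between 121470001 and 121770001 stood above 0 in all maps, and no edge there came under 0.

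Dividing the domain at 121810001, a choice made after the scores were seen, gave a large left block and a small right block of 28 pairs. O/E within the left block was 1.15 ± 0.0027 in wild-type forelimb, 1.14 ± 0.0027 in forebrain, 1.14 ± 0.0027 at the midhindbrain boundary and 1.22 ± 0.0032 in stop-cassette forelimb. Within the right block it was 0.992 ± 0.0075, 0.995 ± 0.0076, 1.04 ± 0.0078 and 0.935 ± 0.0081. Between the blocks it was 1.12 ± 0.0044, 1.07 ± 0.0043, 1.05 ± 0.0043 and 1.11 ± 0.0050. The blocks therefore contacted each other more than expected for their distance in all maps. The stop-cassette map was above wild-type forelimb within the left block (log2 ratio 0.079 ± 0.0051) and below it within the right block (-0.085 ± 0.016) and between the blocks (-0.021 ± 0.0086). With the division at 121400001, contacts between the parts were 1.11 ± 0.0063, 0.985 ± 0.0060, 0.986 ± 0.0061 and 1.23 ± 0.0078, which sets both forelimb maps above both brain maps.

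**Figure D5:**
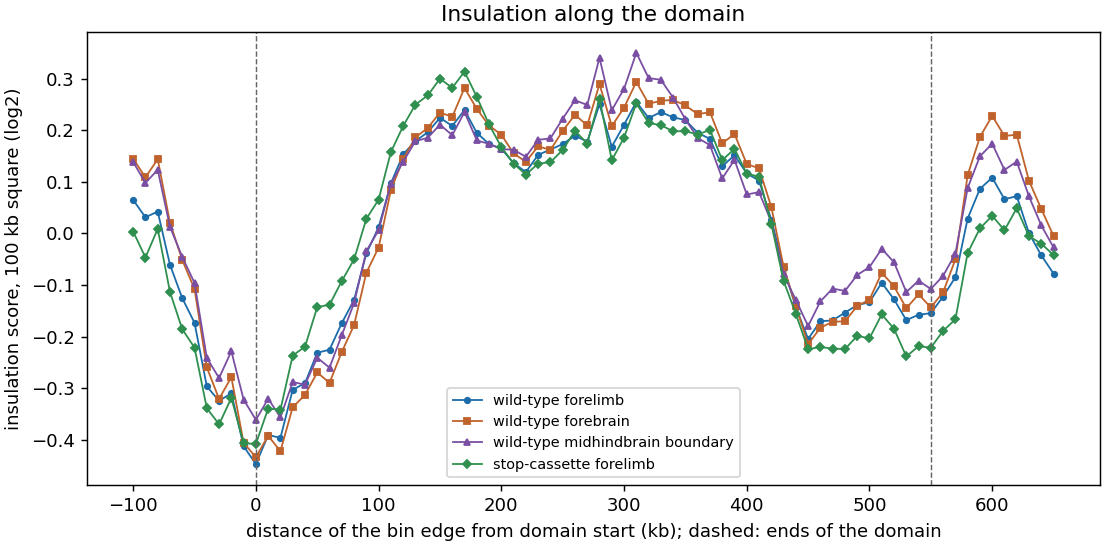
Insulation score (y axis, log2, 100 kb square) at each bin edge from 100 kb before to 100 kb after the domain, by map; dashed lines mark the ends of the domain. The lowest scores lie at the left end, a second low stretch starts 450 kb into the domain, and the stop-cassette map stays lowest from there to the right end.

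The ends of the domain were not equally sharp. With a 200 kb square the boundaries of wild-type forelimb lay at 121360001 (score -0.48) and 121910001 (-0.27), and those of the stop-cassette map at 121350001 and 121910001. The forebrain and midhindbrain boundary maps had theirs at 121380001 and 122050001, so the right end of the interval was no boundary by the same criterion in the brain maps. Wild-type forelimb passed that criterion at 121910001 only narrowly, with a depth of 0.202 against the 0.2 required, and the stop-cassette map with 0.316. With the 100 kb square the scores at this edge were -0.155, -0.144, -0.108 and -0.222 in wild-type forelimb, forebrain, midhindbrain boundary and stop-cassette forelimb. A missing boundary call in the brain maps is therefore no clear difference from wild-type forelimb. The first bin inside, 121360001, had a mean O/E to the right (30 to 200 kb) over that to the left of 0.11 ± 0.027 (log2) in wild-type forelimb, -0.056 ± 0.027 in forebrain, -0.10 ± 0.027 at the midhindbrain boundary and 0.32 ± 0.031 in stop-cassette forelimb. Just outside, bin 121350001 had -0.042 ± 0.034, -0.20 ± 0.035, -0.19 ± 0.035 and 0.21 ± 0.041. The left edge bins thus leaned into the domain in stop-cassette forelimb and away from it in the brain maps.

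At the other end, the last bin inside, 121900001, leaned leftward, into the domain, in all maps, with -0.11 ± 0.026, -0.077 ± 0.025, -0.066 ± 0.026 and -0.095 ± 0.029. The bin just outside, 121910001, leaned rightward in all maps, with 0.18 ± 0.030, 0.21 ± 0.030, 0.11 ± 0.030 and 0.23 ± 0.033.

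Of all raw contacts of the domain's bins at 30 kb or more, 36.4% (wild-type forelimb, 95% Wilson interval 36.3 to 36.5) stayed inside, with 35.7% in forebrain (35.7 to 35.8), 36.4% at the midhindbrain boundary (36.3 to 36.5) and 35.6% in stop-cassette forelimb (35.5 to 35.7). Contacts with the left neighbour (120980001 to 121360000) made up 19.3%, 19.3%, 19.7% and 18.1%, and those with the right neighbour (121910001 to 122470000) 19.0%, 18.8%, 18.4% and 20.6%. The En1 domain (122470001 to 123080000), behind the right neighbour, took 5.61%, 5.30%, 5.14% and 5.95%. Compared with wild-type forelimb, the stop-cassette map had 1.2 percentage points less with the left neighbour and 1.68 points more with the right. The share inside was lower in the stop-cassette map while the mean O/E inside was higher, and the cause was not tested.

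On the O/E scale, contacts with the left neighbour stood at 0.917 ± 0.0024 in wild-type forelimb, 0.878 ± 0.0024 in forebrain, 0.894 ± 0.0024 at the midhindbrain boundary and 0.953 ± 0.0029 in stop-cassette forelimb. Contacts with the right neighbour stood at 0.710 ± 0.0019, 0.699 ± 0.0020, 0.670 ± 0.0019 and 0.790 ± 0.0023, the last of which is a log2 ratio of 0.15 ± 0.0057 over wild-type forelimb. The contacts with the En1 domain were lower still, at 0.655 ± 0.0032, 0.646 ± 0.0032, 0.611 ± 0.0031 and 0.629 ± 0.0032. All 3 sets were thus below 1 in every map, against means of 1.10 to 1.18 inside.

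The internal pattern was shared among the maps. Over the 1378 pairs the log2 O/E of a pair of maps had a Pearson correlation of 0.81 (wild-type forelimb with forebrain), 0.76 (with midhindbrain boundary) and 0.79 (with stop-cassette forelimb), 0.81 (forebrain with midhindbrain boundary), 0.71 (forebrain with stop-cassette) and 0.67 (midhindbrain boundary with stop-cassette). These points share bins, capture baits and the balancing, so the correlations are descriptions only.

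No internal bin pair was called different in any of the 4 comparisons. A two-sided exact binomial test was run on the raw counts of all bin pairs from 30 kb up to 1 Mb that held 20 or more counts over both maps, with Benjamini-Hochberg adjustment over the whole map, and a call needed an adjusted p under 0.05 and a 2-fold difference. All 1378 internal pairs were tested. Over the whole map 0.0282% of 35433 pairs were called for stop-cassette over wild-type forelimb, 0.0198% for wild-type forelimb over forebrain, 0.0621% for wild-type forelimb over midhindbrain boundary and 0.0113% for midhindbrain boundary over forebrain. The count of 0 inside is near this background, which covers pairs up to 1 Mb, while internal pairs reach 540 kb. It was not matched for distance.

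At an unadjusted p under 0.05, 138 internal pairs (10.0%) passed for stop-cassette over wild-type forelimb, against 9.45% in the whole map. For wild-type forelimb over forebrain 128 passed (9.29%), against 8.97%, and over midhindbrain boundary 150 (10.9%), against 10.3%. For midhindbrain boundary over forebrain 97 passed (7.04%), against 7.21%. The domain was near the background each time, though these whole-map shares were not matched for distance either. The squared deviation per pair was 1.53, 1.36, 1.53 and 1.19 times the counting variance inside, so the maps differed by somewhat more than counting error, as over the whole maps (1.51, 1.48, 1.60 and 1.31). The test compares merged maps and not conditions.

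Large ratios of single pairs were scarce. Of the internal pairs with at least 50 counts, 8 of 1371 were at least 1.5-fold higher and 4 at least 1.5-fold lower in the stop-cassette map than in the wild-type forelimb map, against 1.81% and 1.28% of pairs over the whole map at the same distances. Wild-type forelimb over forebrain gave 5 and 1 of 1376 (whole map 1.55% and 0.875%), and over midhindbrain boundary 7 and 1 of 1375 (1.57% and 1.38%). Midhindbrain boundary over forebrain gave 3 and 2 of 1375 (0.969% and 0.974%). The shares inside, from 0.0727% to 0.584%, were lower than the whole map in all 8 cases. Internal pairs were also deeper, with a median of 390 counts over both maps against 237 for the whole map (stop-cassette with wild-type forelimb), and the part of depth in these shares was not tested.

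The highest ratio of stop-cassette over wild-type forelimb joined bins 121410001 and 121710001 (300 kb), with 131 against 103 counts, O/E of 1.47 against 0.908 and a log2 ratio of 0.69 ± 0.19 (exact binomial adjusted p = 0.108). The lowest, -0.73 ± 0.40, joined 121520001 to the thin bin 121640001 on 19 against 43 counts (exact binomial adjusted p = 0.585). For wild-type forelimb over midhindbrain boundary the highest joined 121370001 and 121830001 (460 kb), with 93 against 49 counts and a log2 ratio of 0.88 ± 0.25 (exact binomial adjusted p = 0.0633). Its lowest, -0.79 ± 0.31, involved the thin bin again, with 121850001 (exact binomial adjusted p = 0.279). None of these single pairs passed.

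For wild-type forelimb over forebrain both extremes involved the thin bin, with 121390001 (0.82 ± 0.35, exact binomial adjusted p = 0.419) and with 121800001 (-0.66 ± 0.27, exact binomial adjusted p = 0.366). Midhindbrain boundary over forebrain ranged from 0.66 ± 0.24 for 121410001 with 121700001 (exact binomial adjusted p = 0.346) to -0.68 ± 0.21 for 121470001 with 121890001 (exact binomial adjusted p = 0.206). These 4 extremes missed the threshold as well.

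Without the 2-fold requirement 1 of 1378 internal pairs was called for stop-cassette over wild-type forelimb, against 0.0762% of the whole map, 2 for wild-type forelimb over forebrain, against 0.381%, 2 for wild-type forelimb over midhindbrain boundary, against 0.681%, and 0 for midhindbrain boundary over forebrain, against 0.224%. These counts are at or below the background, again not matched for distance, so the 5 pairs are given as values only. Bins 121440001 and 121570001 (130 kb) were higher in the stop-cassette map than in the wild-type forelimb map, with 406 against 371 counts and a log2 ratio of 0.53 (exact binomial adjusted p = 0.00443). Wild-type forelimb exceeded the midhindbrain boundary between 121380001 and 121570001 (246 against 141 counts, 0.66, exact binomial adjusted p = 0.00734) and between 121370001 and 121570001 (168 against 99, 0.68, exact binomial adjusted p = 0.0355). It exceeded forebrain between 121390001 and 121540001 (448 against 309, 0.41, exact binomial adjusted p = 0.0429) and was below it between 121770001 and 121800001 (793 against 887, -0.27, exact binomial adjusted p = 0.0404).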

How the data were processed

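The members, lists and alternatives were chosen with earlier results of these data known. Per the submitters' processing notes, reads were processed with Bowtie2 2.3.4.1 and Juicer 1.7.6 on mm9. Per the labels, HiCUP was used with a mapping quality of 30 and replicates were merged by group. The authors deposited contact counts for pairs of 10 kb bins and, as balanced values, a KR (Knight-Ruiz) signal. Absent pairs were read as 0. It was checked that KR signal equals count over 1 factor per bin, so balancing removes any effect, technical or real, on a whole bin.

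Using numpy 2.4.6 and scipy 1.17.1 under Python 3.11.15, O/E, insulation and shares were computed as the report defines them. SEs are Poisson counting errors with factors and expectation held. PCR duplicates may remain, and intervals cover counting error only. The expected share of each binomial test came from the KR factors and distance means of both maps. Log2 ratios of single pairs used a pseudocount of 0.5. Tests were also run on simulated Poisson counts. Those lack the variance above counting error of the real maps, so they cannot show how the tests behave under it.

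Named pairs had at least 20 counts in each map and no thin bin: 6 with the highest minimum O/E over maps and 4 with the lowest maximum, apart by over 20 kb at one end or the other. Named bins were the 3 highest, the 3 lowest and the thin one. A bin is thin where its raw coverage is below the median bin's divided by 3. The 5 segments, the box around the strongest pair and the division at 121810001 were chosen after seeing the data. RefSeq promoters matched 4 of 5 coding genes by symbol.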

Additional observations from a re-analysis of the deposited data

How the results depend on the processing

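Left-out replicates could not be run because replicates were merged before deposit. No paired analysis was possible because each group had 1 merged map. The domain mean in wild-type forelimb, forebrain, midhindbrain boundary and stop-cassette forelimb was 1.19, 1.12, 1.12 and 1.24 from raw counts over the raw distance mean, and 1.15, 1.12, 1.11 and 1.19 with the expected level from pairs outside the domain. From 50 kb it was 1.15, 1.11 and 1.19 in wild-type forelimb, midhindbrain boundary and stop-cassette forelimb, and with 2 bins trimmed from each end 1.15, 1.12 and 1.12 in the wild-type maps. The log2 ratios of wild-type forelimb over forebrain and over midhindbrain boundary were 0.093 and 0.093 from raw counts, and 0.030 and 0.036 after trimming. Every domain mean stayed above 1 and these ratios stayed above 0 in the alternatives run. Without the thin bin, and with bins joined to 20 kb, all domain means and ratios stayed within the counting interval. Calls inside the domain stayed at 0 with inflated variance, without KR factors and with at least 50 counts. Without the fold requirement they were 1, 2 and 2 for stop-cassette over wild-type forelimb, wild-type forelimb over forebrain and over midhindbrain boundary, against 0.0762%, 0.381% and 0.681% of the whole map. That puts the domain at or below a background not matched for distance. The causes were not tested. Raw counts moved the dividing edge to 121660001 in all 4 maps, beside the thin bin, and a 60 kb square moved it to 121810001 in the stop-cassette map. A 150 kb square kept it at 121810001 in both brain maps and gave none in either forelimb map. Of the 40 O/E values of named pairs, 8 changed side of 1 in raw counts: 121400001 with 121470001 (1.17, 1.04, 1.12, 1.15) and 121390001 with 121440001 (1.46, 1.35, 1.23, 1.501). A median of 169 to 221.5 counts per pair and map limits what can be seen in single pairs, while means over many pairs are limited by the missing replicates.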
